A study of Mus musculus with 56 samples.

Results

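The effect of removing regulatory T cells (Tregs) on the monocytes and macrophages of the infarcted mouse heart was read 7 days after the infarct, by comparing 3 Treg-depleted with 3 control libraries. These 6 libraries, out of 56 in the series, were taken by the labels for tissue, day and treatment, and the comparison ran over the 11339 genes with enough counts in the heart table. The depleted mice were 10-week-old Foxp3-DTR/GFP (FDG) animals, in which the Foxp3 locus carries the diphtheria toxin receptor, and they received 20 ng/g diphtheria toxin into the peritoneum, from before the infarct through the week after it. Controls were wild-type C57BL/6J mice of the same age that received the same toxin but lack the receptor, so that every mouse had the toxin and an infarct, and each had 1 injury. Because the receptor allele was present in depleted mice only, the FDG genotype and the loss of Tregs cannot be told apart in these data. The toxin acts on any cell that uses the Foxp3 locus, and how the monocytes and macrophages were gated is not given in the sources used here. Libraries were made in bulk from transcript 3′ ends with molecular tags, and the labels do not record whether reads were collapsed by them. Nor do they say that the libraries of a group came from separate mice, so the p-values measure the spread between libraries, part of which may be technical.

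Tregs are CD4+ T cells that depend on the transcription factor Foxp3 and hold other T cells in check. They also act on macrophages. After an infarct, monocytes from the blood enter the dying muscle and become macrophages, beside a smaller pool of macrophages that lived in the heart before and that are known by genes such as Lyve1, Folr2 and Timd4. Interferon-gamma, released by T cells and natural killer cells, switches on genes of antigen processing and of defence inside the cell. Type I interferons switch on a partly shared set of antiviral genes, and IL-4 and IL-13 switch on a type 2 programme with Retnla, Chil3 and Ccl17.

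Total counts were 4288557 to 9144353 in depleted and 7329009 to 9788811 in control libraries. Levels below are CPM, the counts of a gene for each 1000000 counts of its library, always listed for FDG1, FDG2 and FDG3 among the depleted and for WT1, WT3 and WT4 among the control libraries. A gene passed where its Benjamini-Hochberg adjusted p over all genes, from the quasi-likelihood test of edgeR, was under 0.05. SE is the standard error of the log2 change. The test was fitted to all 12 heart libraries, those of day 4 included. Each SE and adjusted p therefore rests on a spread estimated from both days, not from the day 7 libraries alone. Foxp3 itself had 0 counts in all 6 libraries, which allows up to 0.306 to 0.700 CPM per library (3 counts of the total), and in sorted myeloid cells it is no check of depletion. Markers of the labelled cell type were high: Lyz2, Cd68, Csf1r, Adgre1 and Fcgr1 lay above 300 CPM in every library, and all 12 monocyte and macrophage markers together summed to 35238, 31329 and 31928 CPM in depleted libraries, against 42689, 37367 and 41779 CPM in control libraries. On this scale the sum was lower in every depleted library, but with TMM scaling FDG1 (35668 CPM) lay above WT3 (35156 CPM), and 0 of the 12 genes passed the test. On a principal component analysis of log2 levels the first component (39.9% of the variance) separated depleted from control libraries, and on the second (22.6%) the shallowest library, depleted FDG3, stood apart.

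In all, 356 genes passed, which is 3.14% of the genes tested: 179 were higher in depleted cells (1.58%) and 177 lower (1.56%), and the median log2 change of all genes was 0.00. Changes of at least 2-fold made up 139 of them, 74 higher and 65 lower. The count fell with most libraries left out. Leaving out a depleted library gave 166 (FDG1), 218 (FDG2) or 362 (FDG3), leaving out a control library gave 184 (WT1), 172 (WT3) or 124 (WT4), and 73 genes (33 higher, 40 lower) passed with each of the 6 libraries left out in turn. For a named gene, "in n of 6" below gives in how many of these 6 fits it still passed in the same direction. A dagger (†) marks a gene that shares at least 5 percent of its 31-base words with another annotated gene, so that its counts may have been divided among copies. It applies to 72 of the 356. In a sort from a whole organ, fewer cells of a kind and less RNA of a gene per cell cannot be told apart. Counts of list members below are to be read beside the shares of all genes, 1.58% that rose and 1.56% that fell. The lists and their members were chosen with earlier results of these data known. An excess over these shares may come partly from that choice and is no independent support.

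**Figure D1:**
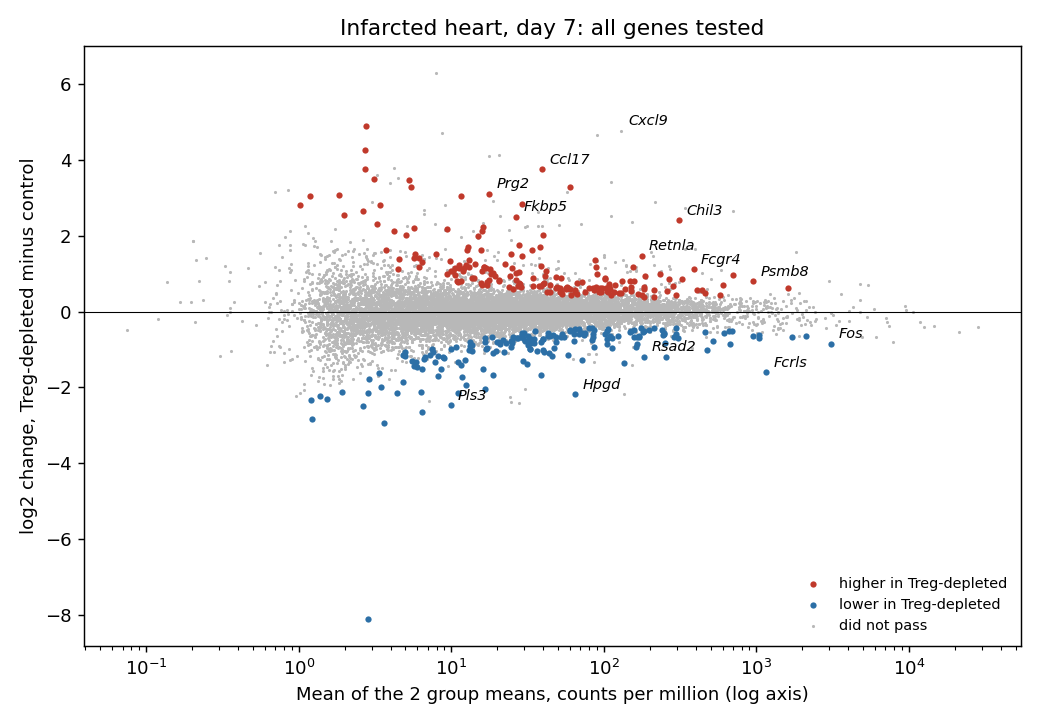
Each point is 1 of the 11339 genes tested, with its mean CPM on a log axis and the log2 change of Treg-depleted minus control cells on the vertical axis. The 179 genes that passed and were higher in depleted cells are red, the 177 lower ones are blue, and Cxcl9, at a log2 change of 4.77, lies far above 0 without passing.

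Most genes on a list of resident heart macrophages were lower in depleted cells. Of 25 tested members of a list of 30 such genes, 8 fell and 0 rose, against 1.56% of all genes that fell, and 23 of 25 had a negative log2 change. In 13 of the 25 every depleted library lay below every control library, which held for 9.45% of all genes. Their median log2 change was -0.59. The list summed to 13472, 11115 and 10196 CPM in depleted libraries, against 12559, 14455 and 12812 CPM in control libraries, which overlapped. This sum includes Ccl8, an abundant member with the opposite sign that was highest in FDG1 (values below). Lyve1, a hyaluronan receptor of macrophages along vessels, had 4.59, 8.75 and 6.76 CPM in depleted libraries, against 24.8, 37.6 and 17.3 CPM in control libraries (log2 change -2.04, SE 0.31, adjusted p = 0.00188). Folr2, which encodes folate receptor beta, had 95.9, 134 and 114 CPM in depleted libraries, against 213, 207 and 211 CPM in control libraries (log2 change -0.92, SE 0.16, adjusted p = 0.0053). Both genes were lower in every depleted library than in any control library, and both passed in 6 of 6. Hpgd, the enzyme that inactivates prostaglandin E2, had 27.8, 23.5 and 19.8 CPM in depleted libraries, against 124, 121 and 73.2 CPM in control libraries (log2 change -2.18, SE 0.29, adjusted p = 0.00247) and passed in 6 of 6. Vsig4, a complement receptor of tissue macrophages, had 1.86, 3.47 and 1.87 CPM in depleted libraries, against 11.9, 12.4 and 6.73 CPM in control libraries (log2 change -2.12, SE 0.43, adjusted p = 0.0118) and passed in 5 of 6. Their order was the same, with the highest depleted library below the lowest control library.

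Fcrls, an Fc receptor-like scavenger gene, was the most abundant of the 8, with 372, 508 and 901 CPM in depleted libraries, against 1785, 1809.5 and 1578 CPM in control libraries (log2 change -1.60, SE 0.32, adjusted p = 0.0306), and passed in 1 of 6. FDG3 was the highest of its depleted libraries. The remaining members were F13a1, which encodes the A subunit of coagulation factor XIII (log2 change -0.57, adjusted p = 0.0232), the carbonyl reductase gene Cbr2† (log2 change -0.97, adjusted p = 0.0306) and Wwp1†, a ubiquitin ligase gene (log2 change -0.82, adjusted p = 0.0306). Other genes of the list did not pass. Cd163, the scavenger receptor for haemoglobin, had 6.89, 12.6 and 14.2 CPM in depleted libraries, against 14.6, 30.6 and 19.2 CPM in control libraries (log2 change -1.01, adjusted p = 0.2), with the highest depleted library just below the lowest control library. The mannose receptor gene Mrc1 had overlapping groups, with 356, 366 and 242 CPM in depleted libraries, against 312, 454 and 321 CPM in control libraries (log2 change -0.20, adjusted p = 0.56). Timd4, a receptor for dying cells, was too low to test, at 1.20, 0.555 and 0.933 CPM in depleted, against 3.27, 2.76 and 0.785 CPM in control libraries. Ccl8 had the opposite sign, with 4823, 2356 and 928 CPM in depleted libraries, against 857, 907 and 964 CPM in control libraries (log2 change 1.56, adjusted p = 0.171). The count of members that fell was 3 without FDG1 and 4 without WT3.

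Genes outside the list that fell and that tissue macrophages also use were picked after their values were seen. S1pr1, a receptor for sphingosine 1-phosphate, had 39.3, 52.8 and 34.7 CPM in depleted libraries, against 89.1, 121 and 92.2 CPM in control libraries (log2 change -1.28, SE 0.21, adjusted p = 0.00462). Nrp1, a co-receptor for semaphorins and VEGF, had 112, 146 and 150.4 CPM in depleted libraries, against 185, 211 and 221 CPM in control libraries (log2 change -0.65, SE 0.11, adjusted p = 0.00362). Metrnl, which encodes the secreted protein meteorin-like, had 302, 353 and 305 CPM in depleted libraries, against 639, 575 and 659.5 CPM in control libraries (log2 change -1.01, SE 0.13, adjusted p = 0.000398). The depleted libraries lay below every control library in each of these genes, and each passed in 6 of 6. The transcription factor genes Mef2c (log2 change -0.68, adjusted p = 0.0053) and Tcf4 (log2 change -0.85, adjusted p = 0.00168) also fell and passed in 6 of 6, whereas Maf (log2 change -0.31, adjusted p = 0.25), which maintains macrophage identity, did not pass. In another list, of genes of macrophages shaped by TGF-beta and Cx3cr1, 1 of 14 fell and 0 rose, and that gene was Olfml3 (log2 change -0.76, adjusted p = 0.0156), which encodes a secreted olfactomedin-like protein.

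**Figure D2:**
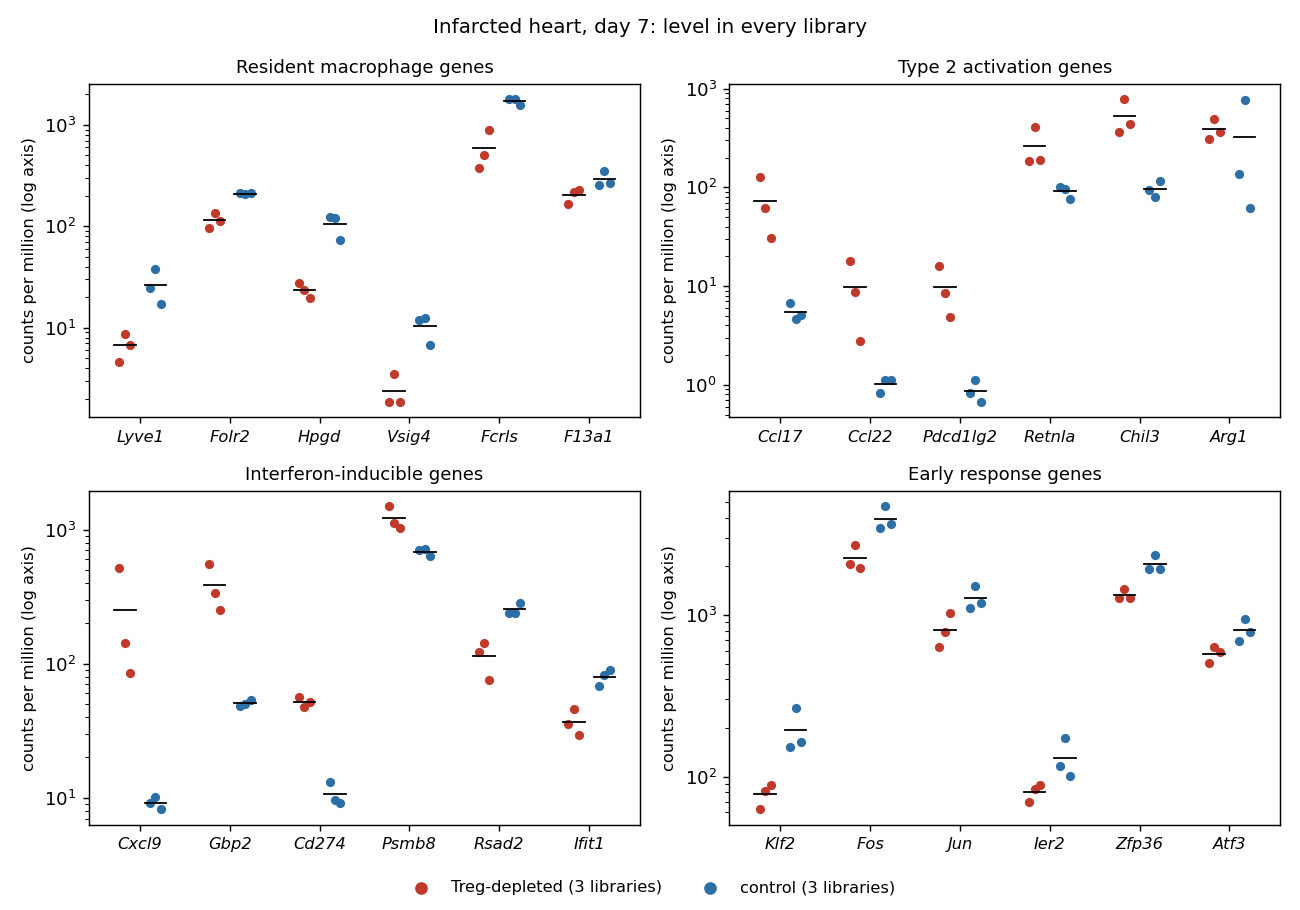
Level of 24 genes in each of the 3 Treg-depleted (red, left) and 3 control libraries (blue, right) in CPM on log axes, with a bar at each group mean. Lyve1, Folr2, Hpgd and the early response genes shown lie lower in every depleted library, Ccl17, Chil3 and Cxcl9 lie higher, and the control libraries of Arg1 span 62.3 to 771 CPM.

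Part of the type 2 activation programme was higher in depleted cells. Among 18 tested members of a list of 20, 5 rose and 0 fell, against 1.58% of all genes that rose, with a median log2 change of 0.52. Of the 18, 6 had a negative log2 change. Every depleted library lay above every control in 8 and below in 2, against 13.9% and 9.45% of all genes. The list sums of 2286, 3498 and 2247 CPM in depleted and 1432, 2446 and 1347 CPM in control libraries overlapped. The chemokine gene Ccl17, a ligand of the receptor Ccr4, had 127, 62.4 and 30.8 CPM in depleted libraries, against 6.69, 4.60 and 5.16 CPM in control libraries (log2 change 3.76, SE 0.55, adjusted p = 0.0107). Ccl22, its neighbour and the second ligand of Ccr4, had 18.0, 8.75 and 2.80 CPM in depleted libraries, against 0.819, 1.12 and 1.12 CPM in control libraries (log2 change 3.28, SE 0.65, adjusted p = 0.0203). Pdcd1lg2, which encodes the checkpoint ligand PD-L2, had 15.9, 8.47 and 4.90 CPM in depleted libraries, against 0.819, 1.12 and 0.673 CPM in control libraries (log2 change 3.47, SE 0.71, adjusted p = 0.0238). All 3 were highest in FDG1 and lowest among the depleted libraries in FDG3, and still did not overlap the controls. They passed in 5, 3 and 3 of 6.

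Retnla†, a secreted resistin-like protein of type 2 macrophages, had 187, 409 and 189.6 CPM in depleted libraries, against 102, 97.5 and 75.5 CPM in control libraries (log2 change 1.47, SE 0.29, adjusted p = 0.0277, in 3 of 6). Chil3†, a chitinase-like protein, had 361, 789.7 and 434 CPM in depleted libraries, against 94.0, 79.2 and 115 CPM in control libraries (log2 change 2.40, SE 0.32, adjusted p = 0.0053, in 6 of 6). Both were highest in FDG2, not FDG1, and Chil3 shares 41.5 percent of its words with other genes. Arg1, the arginase most often used to mark this programme, did not pass, with 308, 493 and 359.8 CPM in depleted libraries, against 136, 771 and 62.3 CPM in control libraries (log2 change 0.25, adjusted p = 0.9), and control WT3 was above all depleted libraries and control WT4 below them. Neither did Il4ra, a chain of the receptor for IL-4 and IL-13 (log2 change -0.06, adjusted p = 0.847), Mgl2† (log2 change 0.90, adjusted p = 0.504), Clec10a† (log2 change 0.73, adjusted p = 0.0602) or Irf4, a transcription factor of the programme (log2 change -0.33, adjusted p = 0.737). The count of members that rose was 2 without WT1 and 1 without WT4. Dendritic cells also make Ccl17, Ccl22 and PD-L2. Of 13 dendritic markers 8 were tested, and 3 of these rose and 1 fell: Ccl22 itself, Batf3 (log2 change 1.07, adjusted p = 0.0277) and the lymph node homing receptor gene Ccr7 (log2 change 2.02, adjusted p = 0.0306), with FDG3 below WT1, rose, and Kmo (log2 change -1.46, adjusted p = 0.0277) fell. Of all genes 1.58% rose and 1.56% fell. Among the 8, 5 had a negative log2 change (median -0.18). Every depleted library lay below every control in 4 of the 8 and above in 2, which held for 9.45% and 13.9% of all genes. All 13 markers, Ccl22 included, summed to 122, 85.4 and 64.4 CPM in depleted libraries, against 56.9, 62.7 and 47.9 CPM in control libraries. Flt3 was at 1.20, 0.417 and 0.700 CPM in depleted, against 1.77, 1.43 and 1.68 CPM in control libraries, and the defining markers Xcr1, Clec9a and Zbtb46 were detected at most at 1.39 CPM in any library. Summed markers of neutrophils and eosinophils, given below, were also higher in every depleted library. The part of these cells in the type 2 result was not tested.

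The gene lists of the 2 kinds of interferon had opposite signs. Of 33 genes of the type I interferon list, all tested, 6 fell and 0 rose, against 1.56% of all genes that fell, and their median log2 change was -0.31. Rsad2, which encodes the antiviral enzyme viperin, had 123, 143 and 75.3 CPM in depleted libraries, against 241, 237 and 285 CPM in control libraries (log2 change -1.19, SE 0.20, adjusted p = 0.00825, in 6 of 6). Ifit1†, which binds viral RNA, had 35.7, 46.2 and 29.1 CPM in depleted libraries, against 68.4, 81.7 and 89.1 CPM in control libraries (log2 change -1.14, SE 0.25, adjusted p = 0.0317, in 1 of 6). Isg20, an exonuclease that degrades RNA, had 35.5, 42.8 and 30.1 CPM in depleted libraries, against 64.5, 64.2 and 55.0 CPM in control libraries (log2 change -0.79, SE 0.16, adjusted p = 0.0118, in 5 of 6). The 3 genes were lower in every depleted library, and each was lowest in FDG3. Cmpk2 (log2 change -0.97, adjusted p = 0.0461), a nucleotide kinase gene beside Rsad2, Ifit3b† (log2 change -1.29, adjusted p = 0.0019) and Ifit1bl1† (log2 change -1.22, adjusted p = 0.0308) fell as well. Irf7, which amplifies the type I response, had overlapping groups, with 282, 264 and 208 CPM in depleted libraries, against 314, 239 and 252 CPM in control libraries (log2 change -0.13, adjusted p = 0.746), and so had Isg15† (log2 change -0.27, adjusted p = 0.729). Zbp1, a sensor of nucleic acids in the same list, had the opposite sign, with 253, 189 and 145 CPM in depleted libraries, against 92.9, 84.6 and 69.7 CPM in control libraries (log2 change 1.23, adjusted p = 0.0716). The count that fell was 3 without FDG1, FDG3, WT3 or WT4 and 2 without WT1.

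All 28 tested members of a list of 30 interferon-gamma inducible genes had a positive log2 change, against 49.4% of all genes, and their median was 1.18, yet 2 rose past the threshold and 0 fell. In 25 of the 28 the 3 depleted libraries lay above all control libraries, which held for 13.9% of all genes. The list summed to 6794, 4912 and 4161 CPM in depleted libraries, against 2487, 2612 and 2381 CPM in control libraries. Psmb8, a subunit of the immunoproteasome, had 1492, 1127 and 1033 CPM in depleted libraries, against 704, 714 and 634 CPM in control libraries (log2 change 0.80, SE 0.20, adjusted p = 0.0416), and Nlrc5, which drives MHC class I genes, had 17.2, 18.7 and 18.7 CPM in depleted libraries, against 6.82, 7.46 and 9.09 CPM in control libraries (log2 change 1.18, SE 0.29, adjusted p = 0.0306). They passed in 1 and 0 of 6. Cxcl9, a chemokine that draws T cells through Cxcr3, had 520.1, 143 and 85.1 CPM in depleted libraries, against 9.14, 10.2 and 8.19 CPM in control libraries (log2 change 4.77, SE 1.21, adjusted p = 0.0759). FDG1 held several times more Cxcl9 than FDG3, and all 3 depleted libraries lay far above the controls, which ranged from 8.19 to 10.2 CPM. Gbp2, a GTPase that attacks the vacuoles of microbes, had 558, 339 and 253 CPM in depleted libraries, against 48.4, 49.8 and 53.7 CPM in control libraries (log2 change 2.90, SE 0.85, adjusted p = 0.116). Cd274, which encodes the checkpoint ligand PD-L1, had 56.9, 47.6 and 51.5 CPM in depleted libraries, against 13.1, 9.70 and 9.09 CPM in control libraries (log2 change 2.26, SE 0.56, adjusted p = 0.0693), with little spread between depleted libraries.

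How many genes of this list passed differed widely with the libraries kept and with the test. At day 4 Gbp2 was at 107, 155 and 1109 CPM in the 3 depleted libraries, the last of which is F3. In a fit of the 6 day 7 libraries alone 17 of the 28 rose and 0 fell (1.45% of all genes rose there), with adjusted p = 0.000213 for Cd274, adjusted p = 0.015 for Gbp2 and adjusted p = 0.106 for Cxcl9, all by edgeR's quasi-likelihood test. Without day 4 F3, 22 of the 28 rose (2.7% of all genes), and with DESeq2 18 did (3.14% of all genes). In fits without 1 library by the main test, 0 rose without day 7 FDG1, FDG2, WT1, WT3 or WT4, 4 without FDG3, 7 without day 4 F2, 2 without day 4 F1, and 1 without each of the 3 day 4 control libraries. Cxcl10, a ligand of Cxcr3 that both kinds of interferon induce, had 181, 129.6 and 70.7 CPM in depleted libraries, against 86.6, 99.0 and 88.9 CPM in control libraries (log2 change 0.46, adjusted p = 0.717), with FDG3 below every control. Irf8 (log2 change 0.06, adjusted p = 0.87) was near its control level.

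The promoters of 4 of these genes are shown because the 2 lists have opposite signs and share motifs. They are RefSeq sequences of GRCm38.p6, on the strand of the gene, from 250 bases before to 50 bases after its start. Capitals mark the interferon-stimulated response element, searched as GAAANNGAAA on both strands, in Rsad2, Ifit1 and Gbp2, and the gamma-activated site, searched as TTCNNNGAA, which reads alike on both strands, in Psmb8. The positions are chr12:26456403-26456702 on the minus strand for Rsad2, chr19:34640639-34640938 on the plus strand for Ifit1, chr3:142620413-142620712 on the plus strand for Gbp2 and chr17:34197945-34198244 on the plus strand for Psmb8.
Rsad2, lower in depleted cells: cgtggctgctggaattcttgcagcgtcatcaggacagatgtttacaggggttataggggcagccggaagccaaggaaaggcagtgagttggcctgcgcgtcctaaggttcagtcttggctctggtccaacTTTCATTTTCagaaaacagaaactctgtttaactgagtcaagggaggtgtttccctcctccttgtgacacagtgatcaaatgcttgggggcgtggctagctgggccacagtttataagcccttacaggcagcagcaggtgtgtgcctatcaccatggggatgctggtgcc
Ifit1, lower in depleted cells: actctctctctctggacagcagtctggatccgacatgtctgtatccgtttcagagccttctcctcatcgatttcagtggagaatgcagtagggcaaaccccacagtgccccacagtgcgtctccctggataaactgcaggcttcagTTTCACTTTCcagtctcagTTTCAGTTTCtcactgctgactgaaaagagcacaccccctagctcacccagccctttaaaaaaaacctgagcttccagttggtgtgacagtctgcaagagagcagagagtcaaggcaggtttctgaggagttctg
Gbp2, higher in all depleted libraries: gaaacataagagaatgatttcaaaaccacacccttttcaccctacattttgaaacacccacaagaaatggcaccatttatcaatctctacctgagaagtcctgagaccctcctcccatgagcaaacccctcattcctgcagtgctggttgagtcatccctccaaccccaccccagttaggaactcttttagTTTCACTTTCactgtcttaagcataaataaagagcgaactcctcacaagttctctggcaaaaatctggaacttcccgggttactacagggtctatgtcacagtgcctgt
Psmb8, higher in depleted cells: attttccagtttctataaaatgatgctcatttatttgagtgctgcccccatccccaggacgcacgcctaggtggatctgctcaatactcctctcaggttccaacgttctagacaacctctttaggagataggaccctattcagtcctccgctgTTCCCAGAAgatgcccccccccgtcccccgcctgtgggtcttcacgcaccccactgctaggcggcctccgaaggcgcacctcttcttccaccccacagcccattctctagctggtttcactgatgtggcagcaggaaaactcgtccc
The response element began 120 bases before the start of Rsad2, 104 and 85 before that of Ifit1 and 59 before that of Gbp2, and the gamma-activated site 97 before that of Psmb8. Among genes with a promoter in the table, 17 of 27 of the type I list and 10 of 19 of the interferon-gamma list held the response element, as did 3.99% of all 27025 genes. The gamma-activated site was held by 4 of 27 and 8 of 19, and by 9.55% of all genes. A match is a run of letters, and no binding was measured here.

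Among 14 genes of MHC class II presentation 2 rose and 0 fell, against 1.58% of all genes that rose, and 12 had a positive log2 change (median 0.71). H2-DMb2†, which helps load peptides, had 21.7, 13.6 and 12.8 CPM in depleted libraries, against 9.14, 7.97 and 5.83 CPM in control libraries (log2 change 1.07, adjusted p = 0.0364), and Ifi30, a lysosomal reductase that unfolds antigens, had 569.8, 521 and 395 CPM in depleted libraries, against 349, 318 and 305 CPM in control libraries (log2 change 0.58, adjusted p = 0.0259). The class II chain gene H2-Ab1 did not pass, with 11361, 5621 and 2969 CPM in depleted libraries, against 4513, 4346 and 3386 CPM in control libraries (log2 change 0.69, adjusted p = 0.449), and FDG3 lay below all controls. Its activator Ciita had 65.7, 40.3 and 18.2 CPM in depleted libraries, against 21.4, 19.2 and 13.0 CPM in control libraries (log2 change 1.22, adjusted p = 0.284), with FDG3 inside the control range. Among class I genes outside the lists, picked after their values were seen, the non-classical H2-Q6† (log2 change 1.63, adjusted p = 0.00361, in 6 of 6) and H2-Q7† (log2 change 1.50, adjusted p = 0.0122, in 3 of 6) rose.

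Receptors that set the threshold of macrophage activation changed in both directions. Of 19 Fc receptor and C-type lectin genes 3 rose and 1 fell, against 1.58% of all genes that rose and 1.56% that fell. Fcgr4, the activating receptor for IgG2a and IgG2b, had 621, 488 and 491 CPM in depleted libraries, against 235, 255 and 233 CPM in control libraries (log2 change 1.11, SE 0.19, adjusted p = 0.00742, in 6 of 6). Clec4e, the receptor Mincle for mycobacterial lipid and dead cells, had 80.7, 128 and 101 CPM in depleted libraries, against 56.1, 83.1 and 57.4 CPM in control libraries (log2 change 0.61, adjusted p = 0.0459), and Clec12a, an inhibitory receptor for uric acid crystals, had 569, 479 and 582 CPM in depleted libraries, against 367, 369.6 and 396 CPM in control libraries (log2 change 0.48, adjusted p = 0.0392). Clec4d, which pairs with Mincle, was lower, with 98.7, 167 and 137 CPM in depleted libraries, against 206, 193 and 213 CPM in control libraries (log2 change -0.66, adjusted p = 0.0366). The groups of Fcgr4, Clec12a and Clec4d did not overlap, and those of Clec4e did, with FDG1 below WT3. In the list of checkpoint and co-stimulatory genes 3 of 19 rose and 0 fell: Pdcd1lg2 and Clec12a, given above, and Cd300lf, a receptor for phosphatidylserine, with 211, 255 and 182 CPM in depleted libraries, against 92.1, 95.3 and 91.2 CPM in control libraries (log2 change 1.18, SE 0.16, adjusted p = 0.00143, in 6 of 6). Its relative Cd300lb had the other sign, with 92.1, 109 and 94.2 CPM in depleted libraries, against 122, 161 and 163 CPM in control libraries (log2 change -0.64, adjusted p = 0.0436). Among 14 complement genes Cfb† (log2 change 2.20, adjusted p = 0.0193), a protease of the alternative pathway, and Cd55† (log2 change 2.54, adjusted p = 0.0211), which takes the pathway's enzyme apart, rose, and C5ar1, the receptor for C5a, fell, with 587, 816 and 869 CPM in depleted libraries, against 959, 1360.4 and 1143 CPM in control libraries (log2 change -0.65, adjusted p = 0.0344).

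Further receptor and signalling genes were picked after their values were seen. Il15ra, the chain that presents IL-15, had 16.7, 11.0 and 14.9 CPM in depleted libraries, against 4.64, 6.23 and 5.50 CPM in control libraries (log2 change 1.34, adjusted p = 0.0118, in 5 of 6). Tnfsf13b, the B cell survival factor BAFF, had 19.2, 18.1 and 34.7 CPM in depleted libraries, against 7.10, 9.60 and 5.50 CPM in control libraries (log2 change 1.63, adjusted p = 0.0461, in 0 of 6). Tarm1, an activating receptor of myeloid cells, had 30.1, 32.6 and 14.5 CPM in depleted libraries, against 4.78, 6.23 and 6.62 CPM in control libraries (log2 change 2.12, adjusted p = 0.01, in 5 of 6). The depleted libraries of all 3 lay above the controls, with FDG3 highest for Tnfsf13b and lowest for Tarm1. Csf2rb†, the shared chain of the receptors for GM-CSF, IL-3 and IL-5 (log2 change 0.62, adjusted p = 0.0118), Icam1, an adhesion molecule (log2 change 0.64, adjusted p = 0.0162), and Acod1, the enzyme that makes itaconate (log2 change 2.84, adjusted p = 0.0298, in 1 of 6), also rose.

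Immediate early genes, which cells switch on within minutes of a stimulus, were lower in depleted cells. Of 22 such genes 7 fell, against 1.56% of all genes, and 0 rose. Of the 22, 21 had a negative log2 change and the median was -0.42. Klf2, a transcription factor that restrains inflammation, had 62.6, 81.5 and 89.1 CPM in depleted libraries, against 153, 264 and 163 CPM in control libraries (log2 change -1.36, SE 0.21, adjusted p = 0.00495, in 6 of 6). Fos, a subunit of the AP-1 dimer, had 2069.8, 2708 and 1961 CPM in depleted libraries, against 3444, 4712 and 3679 CPM in control libraries (log2 change -0.85, SE 0.15, adjusted p = 0.00362, in 6 of 6). Zfp36, which encodes tristetraprolin, a protein that destabilizes cytokine mRNAs, had 1278, 1439.6 and 1274 CPM in depleted libraries, against 1932, 2354 and 1915 CPM in control libraries (log2 change -0.67, SE 0.12, adjusted p = 0.00525, in 6 of 6). Every depleted library lay below every control library for the 3 genes, and WT3 was the highest control for each. Jun (log2 change -0.69, adjusted p = 0.0131), Ier2 (log2 change -0.73, adjusted p = 0.0125), Atf3 (log2 change -0.52, adjusted p = 0.0242) and Dusp1 (log2 change -0.65, adjusted p = 0.0308), a phosphatase that switches off MAP kinases, fell too, and the groups of Dusp1 overlapped. Egr1 (log2 change -0.95, adjusted p = 0.117), Junb (log2 change -0.20, adjusted p = 0.528) and Nr4a1 (log2 change -0.40, adjusted p = 0.229) did not pass. Without FDG1 or WT3 the count that fell was 3. The labels give no time from tissue to sort. Hsp90ab1†, a chaperone (log2 change -0.62, adjusted p = 0.00677, in 6 of 6), and Hspb1† (log2 change -1.17, adjusted p = 0.0306, in 0 of 6) were the 2 of 13 heat shock genes that fell, and 0 rose.

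Of 18 inflammatory cytokine genes and regulators 0 rose and 1 fell, which was Nfkbiz, a cofactor of NF-kappaB, with 265, 427 and 485 CPM in depleted libraries, against 576, 795 and 585 CPM in control libraries (log2 change -0.78, SE 0.16, adjusted p = 0.0125, in 5 of 6). Il1b had overlapping groups, with 526, 735 and 475 CPM in depleted libraries, against 779.9, 961 and 506 CPM in control libraries (log2 change -0.41, adjusted p = 0.255). Il10, the anti-inflammatory cytokine, had 31.2, 30.1 and 28.9 CPM in depleted libraries, against 26.2, 42.5 and 41.0 CPM in control libraries (log2 change -0.31, adjusted p = 0.457), also overlapping, and Tgfb1 had 7.98, 9.86 and 7.69 CPM in depleted libraries, against 10.1, 9.19 and 6.51 CPM in control libraries (log2 change -0.04, adjusted p = 0.944). Tnf (log2 change -0.18, adjusted p = 0.526) and Il6 (log2 change 0.59, adjusted p = 0.519) did not pass either. Chemokines of the CC family had 3 of 19 members higher, Ccl17, Ccl22 and the receptor Ccr7, and those that draw monocytes did not pass, Ccl2 at a log2 change of 0.15 and Ccl7 at 0.08. Of 16 CXC chemokine genes 0 passed in either direction.

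**Figure D3:**
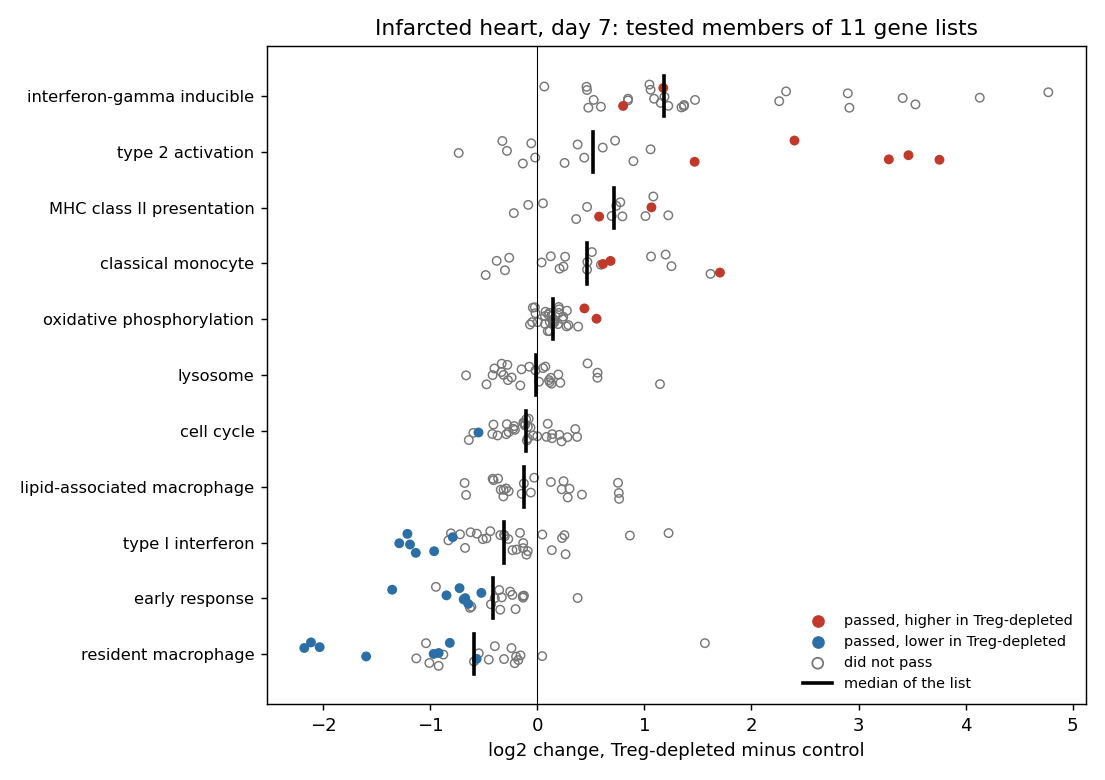
Log2 change, Treg-depleted minus control, of each tested member of 11 gene lists, with members that passed filled and the list's median as a bar. The interferon-gamma inducible list lies right of 0 throughout (median 1.18) with 2 filled points, and the resident macrophage list has the lowest median (-0.59) with 8 filled points.

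Some genes of incoming monocytes were higher. In the classical monocyte list 3 of 20 rose and 0 fell, against 1.58% of all genes that rose, with a median log2 change of 0.46. In 7 of the 20 every depleted library lay above every control library, which held for 13.9% of all genes. The list summed to 3127, 4078 and 4201 CPM in depleted libraries, against 2680, 3429 and 2476 CPM in control libraries, which overlapped. F10, which encodes coagulation factor X, had 56.4, 72.1 and 48.5 CPM in depleted libraries, against 13.4, 27.8 and 11.9 CPM in control libraries (log2 change 1.71, SE 0.28, adjusted p = 0.0107, in 6 of 6). Mgst1, a glutathione transferase of membranes, had 397, 373 and 292 CPM in depleted libraries, against 207, 191 and 247 CPM in control libraries (log2 change 0.68, SE 0.15, adjusted p = 0.017, in 3 of 6), and Clec4e is given above. Ly6c2†, the surface marker of these monocytes, did not pass, with 184, 275 and 126 CPM in depleted libraries, against 104, 60.6 and 82.4 CPM in control libraries (log2 change 1.20, adjusted p = 0.0859), although each depleted library was above each control. The chemokine receptor gene Ccr2 had overlapping groups and the opposite sign, with 352, 278 and 199.6 CPM in depleted libraries, against 407, 488 and 249 CPM in control libraries (log2 change -0.48, adjusted p = 0.347). Of 15 genes of non-classical monocytes, Ear2† (log2 change 2.23, adjusted p = 0.000127, in 6 of 6) and Bcl2a1a† (log2 change 1.75, adjusted p = 0.00394, in 6 of 6) rose and Klf2 fell. Both rises share most of their words with related genes. Cx3cr1, the fractalkine receptor of these cells and of many macrophages, did not pass, with 430.1, 315 and 639 CPM in depleted libraries, against 579, 823 and 542 CPM in control libraries (log2 change -0.53, adjusted p = 0.356).

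Transcripts of other leukocytes were present at low levels, and several were higher in depleted libraries. Of 16 tested neutrophil markers 4 rose, against 1.58% of all genes, and 0 fell. All 16 had a positive log2 change (median 0.87). In 7 of the 16 every depleted library lay above every control, which held for 13.9% of all genes. The calprotectin subunit S100a8 had 96.8, 183 and 100.3 CPM in depleted libraries, against 32.3, 56.2 and 56.3 CPM in control libraries (log2 change 1.35, SE 0.26, adjusted p = 0.0244, in 4 of 6). Ngp, a protein of neutrophil granules, had 15.5, 30.1 and 15.9 CPM in depleted libraries, against 4.37, 2.35 and 0.673 CPM in control libraries (log2 change 3.05, SE 0.49, adjusted p = 0.00721, in 6 of 6). The antimicrobial genes Camp (log2 change 2.66, SE 0.57, adjusted p = 0.0168) and Lcn2 (log2 change 2.30, SE 0.48, adjusted p = 0.0157) rose as well. Every depleted library was above every control in these 4 genes, yet Ly6g†, which defines neutrophils, was at 0.437, 0.694 and 0 CPM in depleted, against 0, 0 and 0.112 CPM in control libraries, and Cxcr2† (log2 change 0.13, adjusted p = 0.918) and Csf3r† (log2 change 0.13, adjusted p = 0.639) did not pass. All 18 markers summed to 682, 949 and 538 CPM in depleted libraries, against 364, 396 and 264 CPM in control libraries, with an exact two-sided permutation p = 0.1, the smallest that 3 against 3 allows. Without WT3 2 members rose.

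Of 8 eosinophil markers 4 could be tested, and 3 of them rose, against 1.58% of all genes. Siglecf had 5.69, 10.7 and 4.20 CPM in depleted libraries, against 1.91, 0.919 and 1.80 CPM in control libraries (log2 change 2.14, SE 0.40, adjusted p = 0.00668, in 6 of 6), and Prg2, the major basic protein of eosinophil granules, had 35.4, 43.9 and 16.1 CPM in depleted libraries, against 6.00, 4.29 and 0.785 CPM in control libraries (log2 change 3.11, SE 0.54, adjusted p = 0.0156, in 5 of 6). Ear6† had 2.19, 11.2 and 1.87 CPM in depleted libraries, against 0.546, 0.102 and 0.449 CPM in control libraries (log2 change 3.76, adjusted p = 0.00902). Control levels of Ear6 were near or below 3 counts per library (0.306 to 0.409 CPM), so the size of its change is uncertain. FDG2 was highest in all 3 genes, and Epx, the eosinophil peroxidase gene, had 0 counts in all 6 libraries. The 8 markers summed to 31.9 to 82.1 CPM in depleted libraries, against 7.29 to 18.8 CPM in control libraries (exact two-sided permutation p = 0.1). In the fit of day 7 libraries alone 1 member rose.

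Of 16 markers of T and natural killer cells 8 were tested, 2 rose and 0 fell, against 1.58% of all genes that rose. Among the 8, 7 had a positive log2 change (median 1.87). Every depleted library lay above every control in 5 of the 8 and below in 1, which held for 13.9% and 9.45% of all genes. Nkg7, a protein of cytotoxic granules, had 2.19, 3.06 and 4.66 CPM in depleted libraries, against 0.546, 0.306 and 0.224 CPM in control libraries (log2 change 3.07, adjusted p = 0.0155), and the T cell receptor constant gene Trbc2† had 2.08, 1.67 and 1.63 CPM in depleted libraries, against 0.546, 0.102 and 0.112 CPM in control libraries (log2 change 2.82, adjusted p = 0.0429). Cd3e was at 1.31, 0 and 0.933 CPM in depleted, against 0.273, 0 and 0.112 CPM in control libraries, and Ncr1 and Foxp3 had 0 counts in every library. Cd4, which some macrophages carry, did not pass, with 10.8, 5.83 and 5.13 CPM in depleted libraries, against 14.5, 12.8 and 14.1 CPM in control libraries (log2 change -0.91, adjusted p = 0.111). The 16 markers summed to 87.5, 142 and 117 CPM in depleted libraries, against 87.3, 49.3 and 109 CPM in control libraries, which overlapped. Control levels of Nkg7 and Trbc2 were near or below 3 counts per library (0.306 to 0.409 CPM), so the size of their changes is uncertain. What these cell types contribute to the higher genes above was not tested.

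Markers of cells of the heart wall were also read. Fibroblast markers (11 tested) had 0 that passed in either direction and summed to 1016, 1201 and 1005 CPM in depleted libraries, against 1329, 708 and 785 CPM in control libraries. Cardiomyocyte markers (11 tested) had 0 that passed and summed to 60.7, 51.7 and 96.8 CPM in depleted libraries, against 51.0, 86.1 and 50.6 CPM in control libraries. Kdr, the VEGF receptor of endothelium, had 2.30, 3.75 and 3.50 CPM in depleted libraries, against 7.23, 9.09 and 8.42 CPM in control libraries (log2 change -1.44, adjusted p = 0.0244) and was the 1 of 7 endothelial markers that fell, and Cdh5 (log2 change -1.14, adjusted p = 0.202) did not pass. Of these 7, 4 had a positive log2 change (median 0.15). The endothelial sums of 155, 198 and 148 CPM in depleted and 150, 135 and 172 CPM in control libraries overlapped. Rgs5, a pericyte gene, had 3.72, 4.86 and 6.53 CPM in depleted libraries, against 8.73, 14.3 and 7.18 CPM in control libraries (log2 change -1.08, adjusted p = 0.0464) and was the 1 of 5 that fell in its list. All 5 had a negative log2 change. The sums of this list, 35.3, 49.9 and 50.1 CPM in depleted and 64.7, 58.4 and 42.5 CPM in control libraries, overlapped. Of 7 red cell and platelet markers, 0 passed, all 7 had a negative log2 change and the median was -2.17. The haemoglobin gene Hbb-bs† had 55.4, 37.9 and 56.0 CPM in depleted libraries, against 111, 427 and 127 CPM in control libraries (log2 change -2.17, adjusted p = 0.0948), with WT3 the highest. The sum of these red cell and platelet markers was lower in every depleted library, at 973, 1376 and 1179 CPM in depleted libraries, against 1691, 2743 and 1543 CPM in control libraries. B and plasma cell markers (5 tested) had 0 that passed and summed to 586, 716 and 537 CPM in depleted libraries, against 609, 505 and 280.2 CPM in control libraries, which overlapped. Mast cell and basophil markers (2 tested) had 0 that passed and summed to 11.9, 15.1 and 11.9 CPM in depleted libraries, against 8.60, 8.68 and 6.06 CPM in control libraries, higher in every depleted library.

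**Figure D4:**
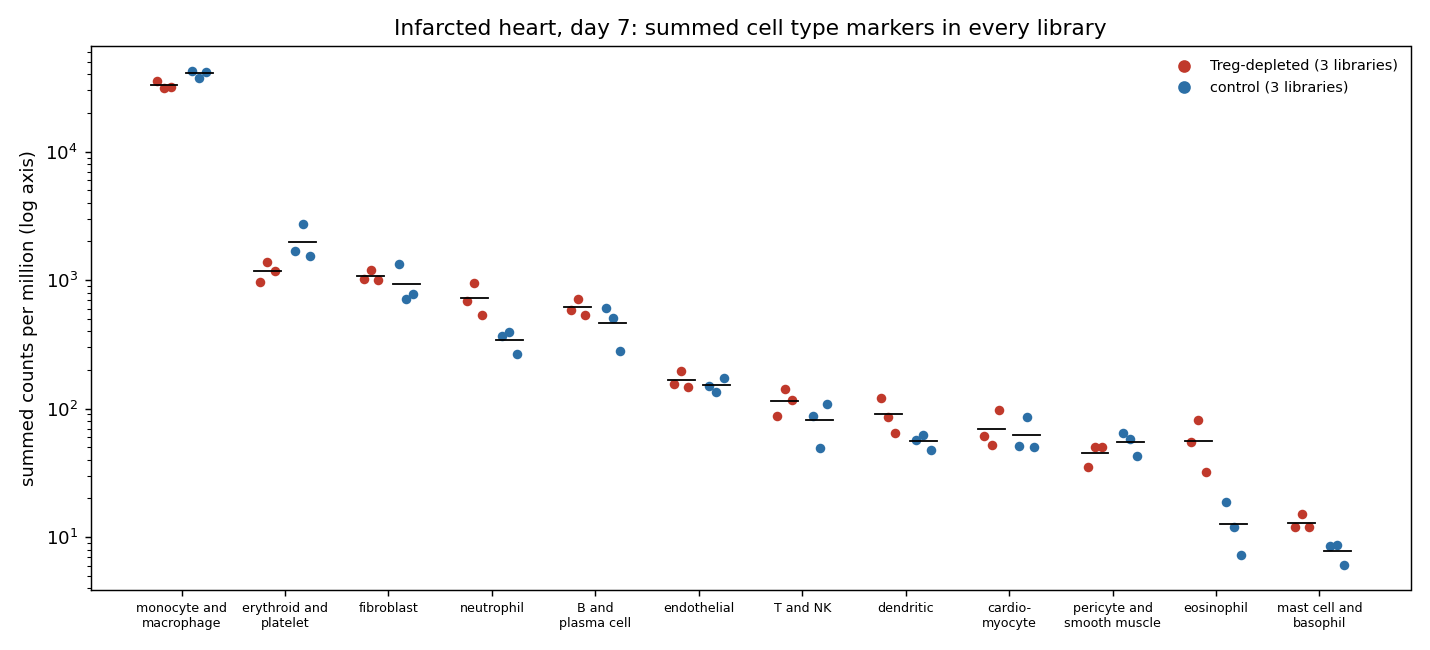
Summed CPM of 12 cell type marker lists in each Treg-depleted (red, left) and control library (blue, right), on a log axis with bars at the group means. Neutrophil (538 to 949 CPM, against 264 to 396 CPM) and eosinophil sums (31.9 to 82.1 CPM, against 7.29 to 18.8 CPM) lie higher in every depleted library, as do the dendritic and mast cell sums, and the monocyte and macrophage sum (31329 to 35238 CPM, against 37367 to 42689 CPM) is the largest of the 12 lists in each library.

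Of 31 nuclear genes of oxidative phosphorylation 2 rose and 0 fell, against 1.58% of all genes that rose, 26 had a positive log2 change and the median was 0.14. These 2 were Cox5a, a subunit of cytochrome c oxidase (log2 change 0.44, adjusted p = 0.0361), and Atp5g3, a subunit of ATP synthase (log2 change 0.55, adjusted p = 0.0483), each in 1 of 6. In 18 of the 31 every depleted library lay above every control library, which held for 13.9% of all genes. Larger changes were found in mitochondrial genes picked after their values were seen. Sod2†, the superoxide dismutase of mitochondria, had 348, 289 and 301 CPM in depleted libraries, against 127, 181 and 156 CPM in control libraries (log2 change 0.98, SE 0.17, adjusted p = 0.00668, in 6 of 6). Prdx5, a peroxidase, had 1129, 853 and 821 CPM in depleted libraries, against 411, 605 and 389 CPM in control libraries (log2 change 0.97, SE 0.19, adjusted p = 0.0132, in 4 of 6). In both the lowest depleted library was above the highest control. Aifm1 (log2 change 0.76, adjusted p = 0.00357), Parl† (log2 change 0.77, adjusted p = 0.00168) and Cpt1a, which brings fatty acids into mitochondria (log2 change 0.51, adjusted p = 0.0306), also rose. Transcripts of the mitochondrial genome summed to 18463, 18398 and 21695 CPM in depleted libraries, against 23905, 23614 and 22470 CPM in control libraries. Among them mt-Nd2† had 467, 506 and 684 CPM in depleted libraries, against 801, 747 and 738 CPM in control libraries (log2 change -0.52, adjusted p = 0.0469) and the isoleucine tRNA mt-Ti had 2.52, 4.30 and 3.50 CPM in depleted libraries, against 9.14, 8.89 and 10.3 CPM in control libraries (log2 change -1.51, SE 0.25, adjusted p = 0.00264, in 6 of 6). Glycolysis and hypoxia genes (25), lysosomal genes (27), genes of lipid-associated macrophages (23) and of cholesterol handling (18) had 0 members that passed in either direction in edgeR. Spp1† (osteopontin), with 3190.1, 6628 and 4461 CPM in depleted libraries, against 7922, 5151 and 8831 CPM in control libraries (log2 change -0.68, adjusted p = 0.194), and the lipid receptor gene Trem2, with 1493, 1562 and 992 CPM in depleted libraries, against 1639.9, 1419.7 and 1767 CPM in control libraries (log2 change -0.29, adjusted p = 0.496), belonged to these. Mertk, which binds dying cells through Gas6, had 84.0, 78.0 and 69.3 CPM in depleted libraries, against 62.1, 49.8 and 51.6 CPM in control libraries (log2 change 0.46, adjusted p = 0.197).

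Other lists had at most 3 genes that passed. In the list of 19 genes of prostaglandins and leukotrienes Ptger2, a receptor for prostaglandin E2, rose, with 13.7, 18.2 and 12.8 CPM in depleted libraries, against 7.50, 9.30 and 7.97 CPM in control libraries (log2 change 0.82, adjusted p = 0.0366, in 1 of 6), and Hpgd and the leukotriene receptor gene Cysltr1 (log2 change -0.45, adjusted p = 0.0426, in 0 of 6) fell. Of 17 growth factor genes of repair Nrg1, which encodes the ErbB ligand neuregulin, was the 1 that rose, with 5.91, 8.19 and 5.83 CPM in depleted libraries, against 2.87, 3.17 and 1.46 CPM in control libraries (log2 change 1.38, adjusted p = 0.0305, in 1 of 6), and 0 fell. Of 22 matrix and protease genes the membrane-bound protease gene Mmp25 was the 1 that rose, with 10.1, 6.11 and 1.63 CPM in depleted libraries, against 1.23, 0.919 and 0.449 CPM in control libraries (log2 change 2.82, adjusted p = 0.0202, in 3 of 6), and 0 fell. All 3 genes that rose were above the controls in every depleted library. Transcription factors of the lineage had 2 of 23 that rose and 0 that fell, namely Tfec (log2 change 1.12, adjusted p = 0.0399) and Bhlhe40 (log2 change 0.52, adjusted p = 0.0296). In the efferocytosis list Cd300lf rose and Cd300lb fell out of 19, and in the iron and haem list Lcn2 was the 1 of 17 that rose. Of 33 cell cycle genes 0 rose and Mcm2, a subunit of the replicative helicase, fell, with 31.6, 42.4 and 31.7 CPM in depleted libraries, against 55.0, 47.5 and 48.5 CPM in control libraries (log2 change -0.56, adjusted p = 0.0302, in 2 of 6).

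Fkbp5, a chaperone of steroid receptors that glucocorticoids induce, had 52.3, 31.8 and 52.7 CPM in depleted libraries, against 8.87, 5.82 and 8.86 CPM in control libraries (log2 change 2.50, SE 0.36, adjusted p = 0.00408, in 6 of 6). Its lowest depleted library was over 3 times as high as its highest control. Of 14 glucocorticoid-induced genes it was the 1 that rose, Dusp1 the 1 that fell, and Tsc22d3, the classic member, did not pass, with 175, 228 and 289 CPM in depleted libraries, against 153, 194 and 184 CPM in control libraries (log2 change 0.33, adjusted p = 0.244). Copper transporter genes Slc31a1 (log2 change 0.87, adjusted p = 0.00981, in 5 of 6) and Slc31a2 (log2 change 0.81, adjusted p = 0.00668, in 6 of 6), picked after their values were seen, both rose.

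Among the remaining genes with the largest changes that passed in 6 of 6 were several with a role in other cells. Pls3, an actin-bundling plastin, had 2.73, 3.47 and 3.03 CPM in depleted libraries, against 13.8, 22.2 and 14.2 CPM in control libraries (log2 change -2.47, SE 0.28, adjusted p = 0.000127). Cd28, the co-stimulatory receptor of T cells, had 3.94, 5.00 and 3.26 CPM in depleted libraries, against 16.5, 16.1 and 21.4 CPM in control libraries (log2 change -2.16, SE 0.35, adjusted p = 0.00284), which is opposite to the direction of Nkg7 and Trbc2. Ptchd1, a patched-related membrane protein, had 0.765, 1.53 and 0 CPM in depleted libraries, against 6.28, 5.21 and 7.97 CPM in control libraries (log2 change -2.95, SE 0.56, adjusted p = 0.00677). The groups of these 3 genes did not overlap. P4ha2, a hydroxylase that collagen needs to fold, had 3.17, 4.86 and 3.73 CPM in depleted libraries, against 12.7, 12.5 and 11.8 CPM in control libraries (log2 change -1.69, SE 0.27, adjusted p = 0.00264), and Nes, the intermediate filament nestin, had 4.59, 7.78 and 14.2 CPM in depleted libraries, against 22.0, 28.1 and 20.2 CPM in control libraries (log2 change -1.52, SE 0.27, adjusted p = 0.00447). Col4a1 (log2 change -0.99, adjusted p = 0.0155), Col4a2 (log2 change -1.19, adjusted p = 0.0263) and P4ha1 (log2 change -0.94, adjusted p = 0.00362), picked after their values were seen, fell beside P4ha2. Reps2, a protein of endocytosis, had 4.16, 6.67 and 6.06 CPM in depleted libraries, against 16.9, 20.1 and 16.9 CPM in control libraries (log2 change -1.73, adjusted p = 0.00247), and the genes 2900026A02Rik (log2 change -1.93, adjusted p = 0.00118) and Gm5086 (log2 change -1.39, adjusted p = 0.00264) fell too.

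The higher genes of the same rule began with Slc4a8, a bicarbonate transporter, with 9.08, 5.83 and 2.33 CPM in depleted libraries, against 0.546, 0.511 and 0.449 CPM in control libraries (log2 change 3.50, SE 0.65, adjusted p = 0.00668). St7 had 22.1, 15.7 and 35.0 CPM in depleted libraries, against 4.64, 6.84 and 5.95 CPM in control libraries (log2 change 1.99, SE 0.30, adjusted p = 0.00171), and Trpm2, a calcium channel opened by oxidants, had 21.4, 15.7 and 19.4 CPM in depleted libraries, against 6.69, 9.50 and 5.16 CPM in control libraries (log2 change 1.37, adjusted p = 0.00569). Rnase6, an antimicrobial ribonuclease, had 66.8, 57.6 and 38.7 CPM in depleted libraries, against 19.1, 29.9 and 21.1 CPM in control libraries (log2 change 1.20, adjusted p = 0.00408). Arg2, the arginase of mitochondria, had 19.1, 30.4 and 18.9 CPM in depleted libraries, against 11.2, 9.70 and 8.64 CPM in control libraries (log2 change 1.18, adjusted p = 0.00264), in contrast to the overlapping groups of Arg1. Itgb7, a homing integrin chain, had 22.4, 28.9 and 17.5 CPM in depleted libraries, against 11.3, 10.1 and 8.64 CPM in control libraries (log2 change 1.17, adjusted p = 0.00666). In each of these 6 genes every depleted library was above every control library.

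The X chromosome, which carries Foxp3 and with it the receptor allele, held 20 of the 356 genes, 14 of them lower, out of 339 tested (5.90%, against 3.14% overall). Among them were Pls3 (GRCm38 chromosome X, 75785654 to 75875182), Ptchd1 (GRCm38 chromosome X, 155573455 to 155623814), Reps2 (GRCm38 chromosome X, 162411954 to 162643649) and G530011O06Rik† (GRCm38 chromosome X, 169975043 to 169978917), which had 1.53, 2.22 and 1.63 CPM in depleted libraries, against 12.4, 14.2 and 6.73 CPM in control libraries (log2 change -2.64, adjusted p = 0.00168). Foxp3 lies at 7573644 to 7595245. All 6 libraries held the Y-linked Ddx3y at 56.3 to 72.9 CPM and at most 0.700 CPM of Xist, so the groups did not differ in these sex-linked transcripts. The part of the genotype in these genes was not tested.

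The day 7 effect was then set against that at day 4 after infarction, where 1259 genes passed (11.1%; 4.25% higher and 6.85% lower in depleted cells), in the same fit with libraries of its own. Of the 356 genes of day 7, 91 passed at day 4 in the same direction and 8 in the opposite one. The difference between the 2 effects passed for 464 genes (4.09%), of which 49 belong to the 356 and 202 carry no dagger. When genes with copies were left out of the fit 97 passed, and differences of daggered genes between days are uncertain. In the type I interferon list 9 of 33 genes, Ifit1† and Ifit3b† among them, passed this test of the difference, and the median log2 change of the list was -0.31 at day 7 and 0.54 at day 4. Rsad2 had a log2 change of -1.19 at day 7 and 0.45 at day 4 (difference -1.64, SE 0.29, adjusted p = 0.0042), and Isg20 -0.79 and 0.54 (difference -1.34, SE 0.23, adjusted p = 0.000972). The interferon-gamma inducible list had 0 of 28 genes whose difference passed, with medians of 1.18 and 1.65, and 10 of them rose at day 4. The day 4 depleted libraries lay far apart for Gbp2, as given above, and their spread enters this test. A difference that did not pass does not show that the 2 effects are equal.

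Resident macrophage genes had 0 of 25 members whose effect differed between days, with medians of -0.59 at day 7 and -0.53 at day 4. Lyve1 changed by -2.04 and -1.71 and passed at both days. Early response genes differed in 4 of 22. Klf2 was one of them, at -1.36 and 0.08 (difference -1.44, SE 0.31, adjusted p = 0.0149), and Zfp36 another, at -0.67 and 0.23 (difference -0.91, SE 0.17, adjusted p = 0.00291). Fkbp5 changed sign, at 2.50 and -1.38 (difference 3.88, SE 0.56, adjusted p = 0.00111), and Cd28, at -2.16 at day 7, was within 0.01 of 0 at day 4 (difference -2.16, SE 0.56, adjusted p = 0.0354). The neutrophil granule gene Ngp had 15.5, 30.1 and 15.9 CPM in depleted libraries at day 7, against 4.37, 2.35 and 0.673 CPM in controls, and at day 4 0, 0.378 and 0.799 CPM in depleted libraries, against 25.5, 38.7 and 28.0 CPM in controls.

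**Figure D5:**
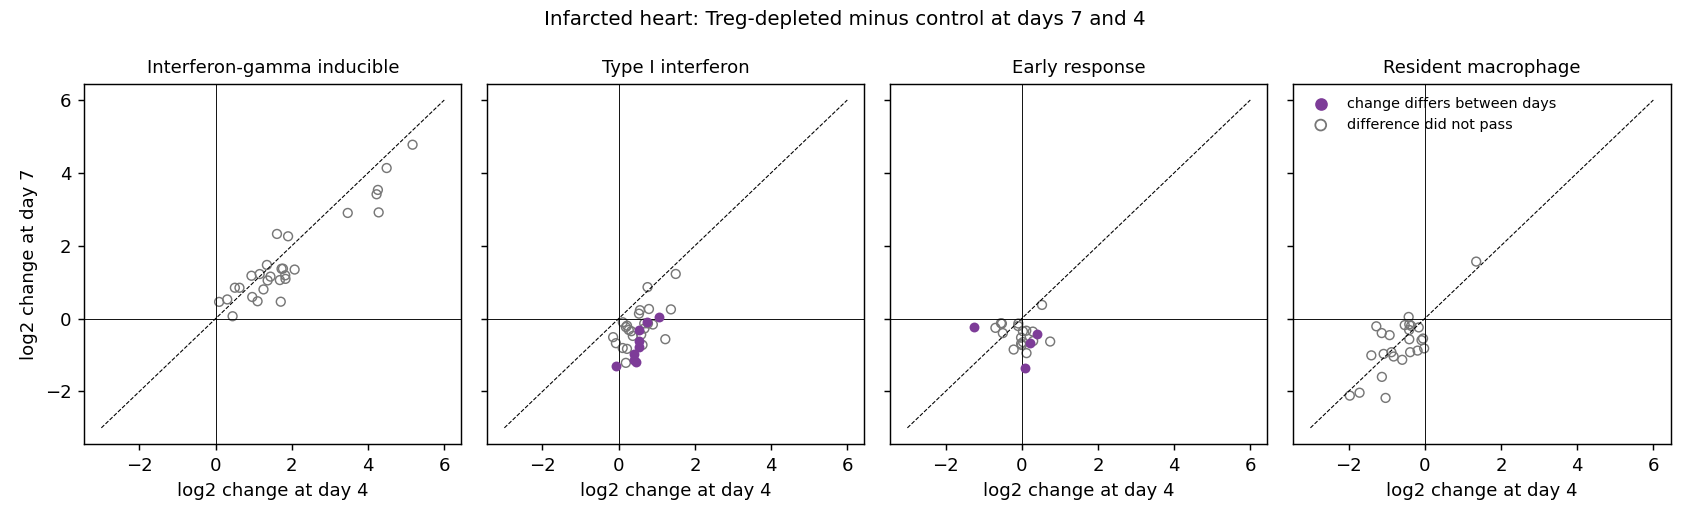
Log2 change, Treg-depleted minus control, at day 7 (vertical) and day 4 (horizontal) for tested members of 4 gene lists, with a dashed line where both are equal and filled points where the difference passed. Filled points number 9 among 33 type I interferon genes and 4 among 22 early response genes, and 0 in the interferon-gamma and resident macrophage panels.

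Finally, the heart genes were read beside the same day 7 comparison in 3 other injuries, each fitted on its own in a separate table of counts: a skull defect (5 against 5 libraries), a muscle defect (3 against 3) and a skin wound (4 against 4). Differences between heart and these tissues were not tested, since the tables were made separately. In bone 23.6% of genes passed, in muscle 8.59% and in skin 6.21%. Of heart genes tested in both, 120 passed in bone in the same direction (36.5% of the heart genes and 4.67% of the bone genes that passed) and 25 in the opposite one. In muscle 99 did so (29.0% of the heart and 10.3% of the muscle genes) and 6 were opposite. In skin it was 72 (21.2% and 10.9%), with 11 opposite.

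In all 4 tissues 23 genes passed in the same direction. Among those that fell, Hpgd had log2 changes of -2.18 in heart, -2.58 in skin, -3.31 in muscle and -3.33 in bone. Pls3 was at -2.47 in heart, -1.70 in skin, -1.61 in muscle and -2.87 in bone. Rsad2 was at -1.19 in heart, -0.84 in skin, -1.35 in muscle and -1.97 in bone, and Mef2c at -0.68 in heart, -1.37 in skin, -1.66 in muscle and -0.76 in bone. Of the rises, F10 was at 1.71 in heart, 1.26 in skin, 1.73 in muscle and 0.67 in bone, and Tarm1 at 2.12 in heart, 2.42 in skin, 2.85 in muscle and 1.29 in bone. Psmb8, at 0.80 in heart, was at 1.00 in skin, 0.65 in muscle and 0.76 in bone. Other genes did not pass in the same direction everywhere. Lyve1, at -2.04 in heart, was at 2.42 in skin, 0.13 in muscle and -0.32 in bone, where the skin value passed with the opposite sign (edgeR adjusted p = 0.00779). Folr2, at -0.92 in heart, was at 0.35 in skin, -1.40 in muscle and -3.06 in bone and passed in bone and muscle. Cx3cr1, which did not pass in heart (-0.53), fell in each other tissue (-2.90 in skin, -2.31 in muscle and -2.51 in bone). Arg1, at 0.25 in heart, rose in muscle by a log2 change of 4.30.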

How the data were processed

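The 6 day 7 heart libraries and the 6 of day 4 came from 1 deposited table of raw counts per gene (GRCm38), made by the authors with STAR, Salmon and featureCounts per the submitters' processing notes, which also name limma and give no versions. The bone, muscle and skin table holds expected counts, deposited by the authors, which were rounded here. Heart columns were matched to groups by their names. In R 4.3.3, edgeR 4.0.16 (TMM, filterByExpr, robust quasi-likelihood F test) was fitted to all 12 heart libraries with 4 group means, and p-values were adjusted by Benjamini-Hochberg over all genes tested. Genes with copies were found from 31-base words of the GENCODE transcripts. On simulated counts with 2-fold and 4-fold changes the fit recovered 74% and 95% of changed genes, with 8 false calls among 11096 genes. The changed genes were drawn only from those above a limit on mean counts, and counts were drawn independently. The rates therefore do not cover genes of low counts or differences shared by many genes of a library. The alternatives were RLE factors, no filter, DESeq2 1.42.0, limma-voom (limma 3.58.1), day 7 alone, no genes with copies, and leaving out each library. Named genes were the 12 largest changes per direction that passed in every leave-one-out fit, did not overlap, had at least 5 CPM in 1 group and carried no dagger, plus list members that passed and a fixed panel of genes, and others are said to be picked after their values were seen. Members and lists were chosen with earlier results of these data known. Differences between libraries of 1 group exceeded sampling noise (chi-square per degree of freedom 14.13 to 26.23).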

Additional observations from a re-analysis of the deposited data

Results flagged for a closer look

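For 18 of the genes named above, the effect of Treg depletion differed between day 7 and day 4, by the edgeR test of the difference itself in the fit of all 12 heart libraries. The differences are log2 changes at day 7 minus those at day 4. Early response and regulatory genes that fell at day 7 differed by -1.44 for Klf2 (-1.36 at day 7, 0.08 at day 4), by -0.91 for Zfp36 (-0.67 at day 7, 0.23 at day 4) and by -1.04 for Nfkbiz (-0.78 at day 7, 0.25 at day 4). Type I interferon genes differed by -1.64 for Rsad2, -1.34 for Isg20, -1.37 for Cmpk2, -1.54 for Ifit1† and -1.23 for Ifit3b†. Each was higher in depleted cells at day 4 on the log2 scale, except Ifit3b (-0.06). Cd28 differed by -2.16 and Gm5086 by -1.28.

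Genes that rose at day 7 differed by 3.88 for Fkbp5 (2.50 at day 7, -1.38 at day 4), by 1.83 for St7, by 2.12 for Chil3†, by 2.57 for Lcn2, by 1.65 for Ptger2 (0.82 at day 7, -0.83 at day 4) and by 0.70 for Bhlhe40. The neutrophil granule genes Ngp and Camp differed by 9.20 and 9.94. Their fitted changes at day 4 rest on few counts: Camp had 1 count in all depleted libraries and 170 in all control libraries at day 4, a ratio of 0.0051 (exact 95% interval 0.000128 to 0.0288), and Ngp had 6 and 381 counts, a ratio of 0.0137 (0.00498 to 0.0300). These intervals cover counting error only. Genes marked † share words with other genes and their differences are uncertain.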

How the results depend on the processing

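The 356 genes that passed (179 higher, 177 lower) became 754 (361 higher, 393 lower) with no filter on low counts, 613 (356 higher) with DESeq2 and 542 (280 lower) with limma-voom, and the cause was not tested. Of 86 named genes that passed none reversed direction under these alternatives, and 85 still passed with RLE factors, 84 with limma-voom, 86 with DESeq2, 61 in day 7 libraries alone and 68 of 70 without genes with copies. Of the 86, 48 still passed without FDG1, 65 without FDG2, 69 without FDG3, 58 without WT1, 42 without WT3 and 46 without WT4. The 12 largest changes per direction among them were chosen for passing each of these 6 fits, so their share was fixed in advance. With no filter 13 resident macrophage genes and 11 early response genes fell, 10 type I interferon genes fell, and 8 type 2 and 8 interferon-gamma genes rose. DESeq2 gave 8 type 2 and 18 interferon-gamma genes that rose, limma-voom 4 of the interferon-gamma genes, and day 7 libraries alone 17 of these and 1 eosinophil marker. Without genes with copies, which removes members, 3 type 2 genes rose, 3 type I interferon genes fell and the effect differed between days for 97 genes. Leaving out 1 library, day 4 libraries included, gave 124 to 558 genes (53 to 312 higher, 71 to 246 lower), 316 to 457 genes with a difference between days, 3 to 11 resident macrophage, 2 to 7 type I interferon and 3 to 8 early response genes that fell, and 1 to 7 type 2, 0 to 22 interferon-gamma, 2 to 6 neutrophil and 2 to 4 eosinophil genes that rose. No paired analysis was possible because the numbers in the heart table's column names could not be matched to the replicate numbers of the labels, and nothing marks a batch shared between groups. In libraries of 4288557 to 9788811 counts, 3 counts are 0.306 to 0.700 CPM. A level below the value of its own library rests on fewer than 3 counts, and the size of a change from such a level is uncertain.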

Other observations

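The genes described here were chosen after their values were seen. Several genes with large differences that did not pass in the fit of 12 libraries are known to be induced by interferon-gamma and lie outside the lists. The serine protease inhibitor gene Serpina3g† had 287, 110.3 and 123 CPM in depleted libraries, against 7.37, 6.33 and 6.96 CPM in control libraries (log2 change 4.65, adjusted p = 0.0693, edgeR). Slamf8, a receptor of the SLAM family on macrophages, had 174, 78.3 and 55.5 CPM in depleted libraries, against 12.8, 12.9 and 9.09 CPM in control libraries (log2 change 3.15, adjusted p = 0.076, edgeR). Il12rb1, a chain of the receptors for IL-12 and IL-23, had 12.5, 5.83 and 5.36 CPM in depleted libraries, against 0, 1.02 and 0.561 CPM in control libraries (log2 change 3.78, adjusted p = 0.101, edgeR). The depleted libraries of these 3 genes lay above all controls, with FDG1 the highest. Iglc1, an immunoglobulin light chain gene, was high in a single library, depleted FDG2, with 3.17, 42.6 and 4.20 CPM in depleted libraries, against 1.50, 0.204 and 0.224 CPM in control libraries.

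Rbm3† and Cirbp, RNA-binding proteins that cells make at lower temperature, both rose. Rbm3 had 10.1, 11.7 and 14.2 CPM in depleted libraries, against 4.37, 4.49 and 3.14 CPM in control libraries (log2 change 1.52, adjusted p = 0.00447, edgeR). Cirbp had 121, 99.6 and 153 CPM in depleted libraries, against 57.7, 68.1 and 35.3 CPM in control libraries (log2 change 1.17, adjusted p = 0.0232, edgeR). FDG3 was highest for both. The clock repressor genes Nr1d1 (log2 change 1.41, adjusted p = 0.0306) and Ciart† (log2 change 0.94, adjusted p = 0.0453) rose too and passed in 1 and 2 of 6 leave-one-out fits.

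The mitochondrial transcript mt-Nd3† had 0 counts in all depleted libraries and 146 in all control libraries. The gene Gm28438†, which shares nearly all of its words with it, had 112 counts in depleted and 4 in control libraries. Their counts together were 112 in depleted and 150 in control libraries, which is 5.43 and 5.76 CPM. How reads were assigned between the pair was not tested.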
